A study of Mus musculus with 12 samples.

Results

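Zp1, Zp2 and Zp3 are the 3 genes that encode the glycoproteins of the mouse zona pellucida (ZP), and they were chosen by name from the 24255 genes measured by RNA-Seq in oocytes of Dpagt1 mutant females. Their transcripts were followed in 12 libraries, each from 20 pooled germinal vesicle (GV) stage oocytes, whose RNA was amplified by Smart-seq2, a procedure that copies whole transcripts from a few cells. The C57BL/6 females were 3 weeks old and had been given 5 IU of PMSG, a gonadotropin that drives follicle growth, 46 h before collection. DPAGT1 is the enzyme of the endoplasmic reticulum (ER) that starts the assembly of N-linked glycans.

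Each of the 4 groups held 3 libraries. The labels give the genotype of the WT females only as WT, and whether they carried a floxed allele is not stated there. MUT females carried D166G, a point mutation of Dpagt1 that arose by chemical mutagenesis and is present in all cells. GcKO females were Dpagt1F/F Gdf9CRE/+, in which Cre is expressed in oocytes from the primordial follicle stage. AmcKO females were Dpagt1F/F Amhr2CRE/+, in which Cre acts in granulosa cells, so the AmcKO oocytes that were sequenced were not the cells targeted. No group is labelled as carrying the floxed allele without Cre or a Cre alone. The labels number the WT and AmcKO libraries 4 to 6 and the MUT and GcKO libraries 1 to 3. What these numbers stand for is not given in the sources used here, and whether the pools came from separate females is not stated, so the p-values measure the spread between these pools, which may be technical.

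The ZP is the extracellular coat that the growing oocyte secretes around itself, and cumulus cell projections and, later, sperm must cross it. In the mouse, ZP2 and ZP3 are the main components of its filaments, and ZP1 cross-links them. All of them are made by the oocyte, enter the ER, receive N-linked glycans at sites of the form N-X-S/T (X being any residue but proline), and are cut free of a transmembrane anchor before they are assembled outside the cell.

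The coding sequences were searched for the codons of such sites, because the enzyme altered in these mice acts before any of these sites can be glycosylated. Zp1 lies on the reverse strand of chromosome 19 of GRCm38 (chr19:10914287-10920632), and its GENCODE transcript has 1963 nt, 12 exons and 623 codons. Zp2 lies on the reverse strand of chromosome 7 (chr7:120126772-120145291), with 2221 nt, 18 exons and 713 codons. Zp3 lies on the forward strand of chromosome 5 (chr5:135980099-135988624), with 1323 nt, 8 exons and 424 codons. No annotated gene overlapped any of the 3. Each coding sequence held 6 potential sites, 18 in all, and none was split by an exon border. For each gene the most 5′ and the most 3′ site are printed with the codon at which they start, the codons of the site in capitals.
Zp1, codon 49, exon 1: cctaggccaAACCAGACTgtccaattc
Zp1, codon 585, exon 12: tccagcaggAACTCCAGCtcaagaatg
Zp2, codon 83, exon 4: gaaattttgAACTGCACTtatgctctg
Zp2, codon 393, exon 11: ctggtgggaAATTCCTCTtgccagcct
Zp3, codon 146, exon 3: aggcagggcAATGTGAGCagccaccct
Zp3, codon 330, exon 7: aactgtagtAATTCAAGCtcttcacag
The sites of Zp1 spread from near the start to near the end of the coding sequence, those of Zp2 ended at codon 393 of 713, and those of Zp3 began at codon 146 of 424. In Zp3 the last site directly followed the one before it, at codon 327. Whether a site was glycosylated was not measured.

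Zp genes are transcribed in oocytes by FIGLA, a basic helix-loop-helix factor that binds the E-box, CANNTG, together with an E protein such as those encoded by Tcf3 and Tcf12. The RefSeq table used here held the upstream sequence of 1 of the 3 genes, Zp3, and it is shown because the members and Figla are compared further on. The 250 bases before the RefSeq start of Zp3 (chr5:135979855-135980104 of GRCm38, forward strand), with every CANNTG match in capitals, read as follows.
Zp3: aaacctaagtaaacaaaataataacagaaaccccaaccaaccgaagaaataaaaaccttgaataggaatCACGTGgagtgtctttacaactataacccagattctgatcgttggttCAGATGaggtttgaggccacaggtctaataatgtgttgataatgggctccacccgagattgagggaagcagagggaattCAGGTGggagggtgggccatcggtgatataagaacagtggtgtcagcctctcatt
The 3 matches began at positions -181, -134 and -55 relative to that start. CANNTG reads the same in form on both strands and is short. Of 32851 mouse upstream sequences of the same length, 66.2% held at least 1 match and 12.2% held at least 3, so a match is a description of the sequence and not a binding site.

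The values are FPKM, which the authors computed per gene and library, and which allow levels of different genes to be compared because they are divided by transcript length. The sum of all FPKM in a library lay between 1167362 and 1226005 in WT, but only between 589617 and 611597 in MUT, 482314 and 684212 in GcKO, and 883256 and 1107925 in AmcKO. Fewer genes were above 0 in the WT libraries (9359 to 9622) than in those of AmcKO (10399 to 10921), MUT (11208 to 11467) or GcKO (10733 to 11608). A group can therefore be lower on the deposited scale and higher as a share of its library, and both scales are given for the members and, for other genes, where a call or direction differs between them. The share is given in ppm, that is, FPKM after each library was scaled to a sum of 1000000. FPKM hold no counts. From the smallest steps between low values, of which 65.4 to 74.4% per library lay within 0.1 of a whole multiple, Zp1 rested on roughly 23 to 117 fragments a library, Zp2 on 173 to 399 and Zp3 on 412 to 1441. By the same estimate, 1 fragment on 1 kb of transcript stood for 1.65 to 1.92 FPKM in WT and 0.72 to 0.86 in MUT. It stood for 0.65 to 1.09 FPKM in GcKO and 0.87 to 1.08 in AmcKO. A value of 0 in WT therefore says less about absence than in the other groups. Dpagt1 itself stood at 0 throughout WT and AmcKO, at 0.41 to 0.98 FPKM in MUT and at 0.37 FPKM in 1 GcKO library with 0 in the others, which is too low to check the genotypes.

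Zp3 was the most abundant of the 3 transcripts and Zp1 the least, in this order in 12 of 12 libraries. Over all libraries Zp3 had 614 ± 179 FPKM, Zp2 126 ± 39.8 FPKM and Zp1 29.9 ± 9.91 FPKM (mean ± SD, n = 12). By FPKM, Zp3 ranked 155 to 309 among all genes of a library, Zp2 ranked 670 to 1034, and Zp1 ranked 1329 to 2541. In WT oocytes, Zp3 made up 75.6% ± 0.764 of the summed FPKM of the 3 genes, Zp2 20.9% ± 0.325 and Zp1 3.51% ± 0.580 (SD, n = 3). The FPKM ranges of the 3 genes over the 12 libraries did not overlap.

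Zp2, which carries a sperm-binding region and is cleaved after fertilization, was lower in MUT and GcKO oocytes on the deposited scale, though not as a share of the library. Its level was 191, 163 and 172 FPKM in WT replicates 4, 5 and 6, and 88.5, 91.0 and 67.2 FPKM in MUT replicates 1, 2 and 3. It was 73.6, 116 and 131 FPKM in GcKO replicates 1, 2 and 3, and 150, 141 and 125 FPKM in AmcKO replicates 4, 5 and 6. All MUT, GcKO and AmcKO libraries lay below the lowest WT library, as did those of 16.9%, 16% and 8.61% of all genes tested in the same 3 comparisons. The means were 175 ± 14.7 FPKM in WT, 82.2 ± 13.1 in MUT, 107 ± 29.9 in GcKO and 139 ± 12.3 in AmcKO (SD, n = 3), and of neighbours in the order WT, AmcKO, GcKO, MUT only WT and AmcKO did not overlap. A level in such a pool is relative to the other RNA of the pool, so the amount of RNA per oocyte was not measured.

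As a share of its library, Zp2 overlapped between WT and MUT. It made up 156, 139 and 140 ppm of the FPKM sum in WT, and 145, 149 and 114 ppm in MUT. The shares were 153, 190 and 192 ppm in GcKO and 155, 127 and 142 ppm in AmcKO. Each of the 3 groups overlapped with WT on this scale.

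Zp3, which forms the filaments with ZP2 and without which no zona is assembled, was lower in MUT oocytes on the deposited scale and higher as a share. Its level was 674, 599 and 627 FPKM in WT and 375, 497 and 460 FPKM in MUT. It was 493, 596 and 507 FPKM in GcKO, and 952, 639 and 952 FPKM in AmcKO. MUT and GcKO libraries lay below all WT libraries, GcKO replicate 2 by a narrow margin, and AmcKO replicate 5 fell among the WT values while replicates 4 and 6 lay above them. Of all genes tested, 16.9% in MUT and 16% in GcKO lay wholly below WT as deposited. The means were 848 ± 181 FPKM in AmcKO, 633 ± 37.9 in WT, 532 ± 55.6 in GcKO and 444 ± 62.5 in MUT (SD, n = 3), and of neighbours in this order only WT and GcKO did not overlap.

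The share of Zp3 went the other way. It made up 550, 513 and 512 ppm of the FPKM sum in WT, and 614, 813 and 780 ppm in MUT. It made up 1023, 972 and 741 ppm in GcKO, and 984, 577 and 1078 ppm in AmcKO. Every MUT, GcKO and AmcKO library lay above the highest WT library on this scale, as did 49.6%, 48.2% and 16.2% of all genes tested in the same 3 comparisons.

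Zp1, the cross-linker, was the most variable between pools. Its level was 34.8, 22.3 and 31.9 FPKM in WT and 17.3, 24.9 and 22.3 FPKM in MUT. It was 17.0, 34.7 and 31.3 FPKM in GcKO and 37.9, 31.8 and 52.1 FPKM in AmcKO. The means were 40.6 ± 10.4 FPKM in AmcKO, 29.6 ± 6.52 in WT, 27.6 ± 9.40 in GcKO and 21.5 ± 3.86 in MUT (SD, n = 3), and all neighbours in this order overlapped. As a share, it made up 28.4, 19.1 and 26.0 ppm of the FPKM sum in WT and 28.3, 40.7 and 37.9 ppm in MUT. The shares were 35.2, 56.6 and 45.7 ppm in GcKO and 39.2, 28.7 and 59.0 ppm in AmcKO, so that GcKO and AmcKO lay above WT and MUT overlapped with it. On that scale 48.2% of all genes tested lay wholly above WT in GcKO and 16.2% in AmcKO.

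**Figure D1:**
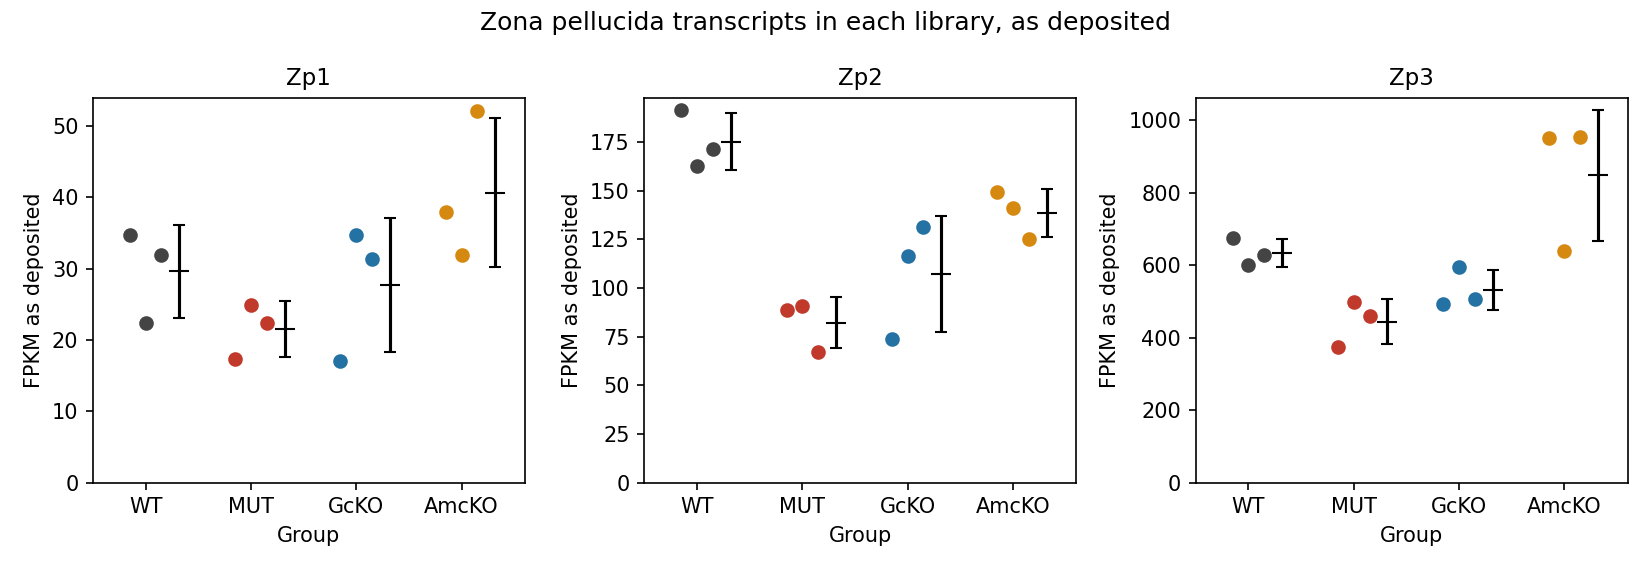
FPKM of Zp1, Zp2 and Zp3 as deposited (y axis, from 0) in the 12 libraries by group (x axis). Points are libraries in the order of their numbers, and bars give the mean and SD of 3. For Zp2 the WT points, at 163 to 191 FPKM, lie above all others, while for Zp3 the MUT and GcKO points lie below WT and replicates 4 and 6 of AmcKO at 952 FPKM.

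**Figure D2:**
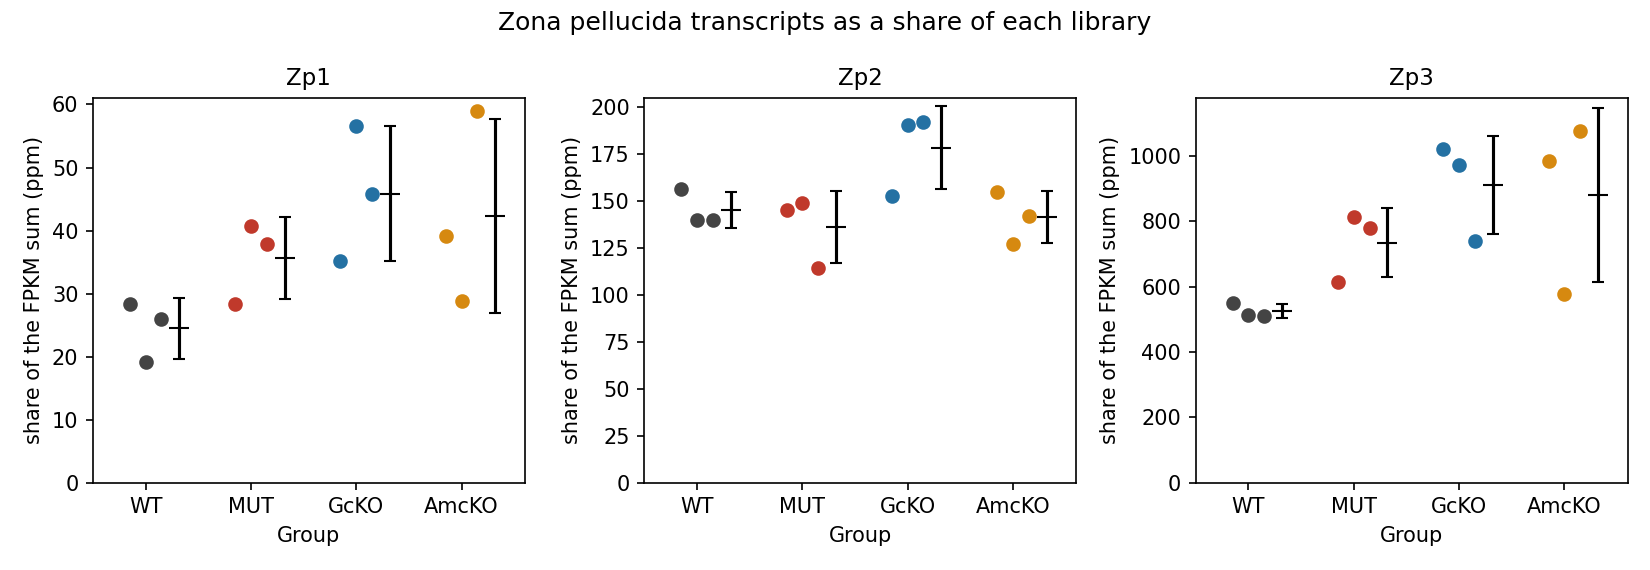
The same transcripts in ppm of each library's FPKM sum (y axis, from 0), by group (x axis). Points are libraries, and bars give the mean and SD of 3. For Zp3 the WT points, at 512 to 550 ppm, lie below all others, and for Zp2 the groups overlap with WT.

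Part of the spread can be set against counting error. The coefficient of variation of Zp1 within a group was 17.9 to 34.0% of its FPKM, while the estimated fragments alone would give 11.4 to 17.6% on average. For Zp2 these values were 8.37 to 27.9% and 5.67 to 6.72%, and for Zp3 they were 5.98 to 21.3% and 3.01 to 4.58%. In each group the spread between pools was larger than the estimated counting error, and the widest spread of Zp2 was in GcKO, where replicate 1 had 73.6 FPKM and replicate 3 had 131 FPKM.

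The D166G comparison addressed what a DPAGT1 altered in all cells does to the oocyte transcriptome. With limma on log2(FPKM + 1) over the 11233 genes that reached 1 FPKM in at least 1 library, 2 of the 3 members, Zp2 and Zp3, were called lower in MUT than in WT oocytes at a Benjamini-Hochberg adjusted p under 0.05, while 11.3% of all genes tested were called lower, 9.46% higher and 20.8% were called in either direction. Zp2 fell by 1.09 on the log2 scale (SE 0.20, limma adjusted p = 0.00215), to 0.469 times its WT level, and 6.59% of all genes had a lower log2 fold change. Zp3 fell by 0.52 (SE 0.17, limma adjusted p = 0.0489), and this call was lost when any 1 of the 6 libraries was left out (adjusted p = 0.0626 to 0.184). Zp1 differed by -0.44 (SE 0.28, limma adjusted p = 0.297). The 2 members whose 3 MUT values all lay below WT, Zp2 and Zp3, compare with 16.9% of all genes tested.

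The direction of these changes depended on the scaling. With every library set to the same FPKM sum, the median log2 difference of all genes between MUT and WT moved from 0.12 to 0.69, and 43.6% of genes were called, 41.3% higher and 2.25% lower. On that scale Zp2 differed by -0.10 (limma adjusted p = 0.607), Zp3 by 0.48 (adjusted p = 0.0650) and Zp1 by 0.52 (adjusted p = 0.132), and none of the 3 was called, with 1 of them, Zp3, at an unadjusted p under 0.05. All of them then lay below the median of all genes, with 12.6% of genes lower than Zp2, 38.6% lower than Zp3 and 41.2% lower than Zp1. With quantile normalization, 13.1% of genes were called, Zp2 was lower (log2 fold change -0.55, limma adjusted p = 0.0436) and Zp3 differed by 0.39 (adjusted p = 0.216). Zp2 was thus the lowest placed of the 3 relative to all genes under each of these scalings.

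The GcKO comparison addressed the loss of Dpagt1 in the oocyte alone. Of the 3 members 1, Zp2, was called lower in GcKO than in WT oocytes as deposited, beside 11.4% of all genes called lower, 8.71% higher and 20.2% called in either direction. Zp2 fell by 0.74 (SE 0.20, limma adjusted p = 0.0195), to 0.597 times its WT level, and the call was lost without WT replicate 4 (adjusted p = 0.0637) or without GcKO replicate 1 (adjusted p = 0.0737). Zp3 differed by -0.25 (SE 0.17, adjusted p = 0.329) and Zp1 by -0.13 (SE 0.28, adjusted p = 0.778). The 2 members whose 3 GcKO values all lay below WT, Zp2 and Zp3, compare with 16% of all genes tested.

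At the same FPKM sum the calls in GcKO were of the opposite direction and of other members. Zp3 was higher by 0.78 (SE 0.20, limma adjusted p = 0.00592) and Zp1 by 0.86 (SE 0.27, adjusted p = 0.0185), while Zp2 differed by 0.29 (adjusted p = 0.136). The median of all genes was itself shifted by 0.72, 42.4% of genes were called higher and 2.15% lower, and Zp3 and Zp1 stood near the middle of all genes, with 53.1% and 57.5% of genes lower. Of all genes, 27.7% lay lower than Zp2. With quantile normalization Zp3 was higher by 0.66 (adjusted p = 0.0476) and Zp2 differed by -0.17 (adjusted p = 0.548), while 6.15% of genes were called higher.

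**Figure D3:**
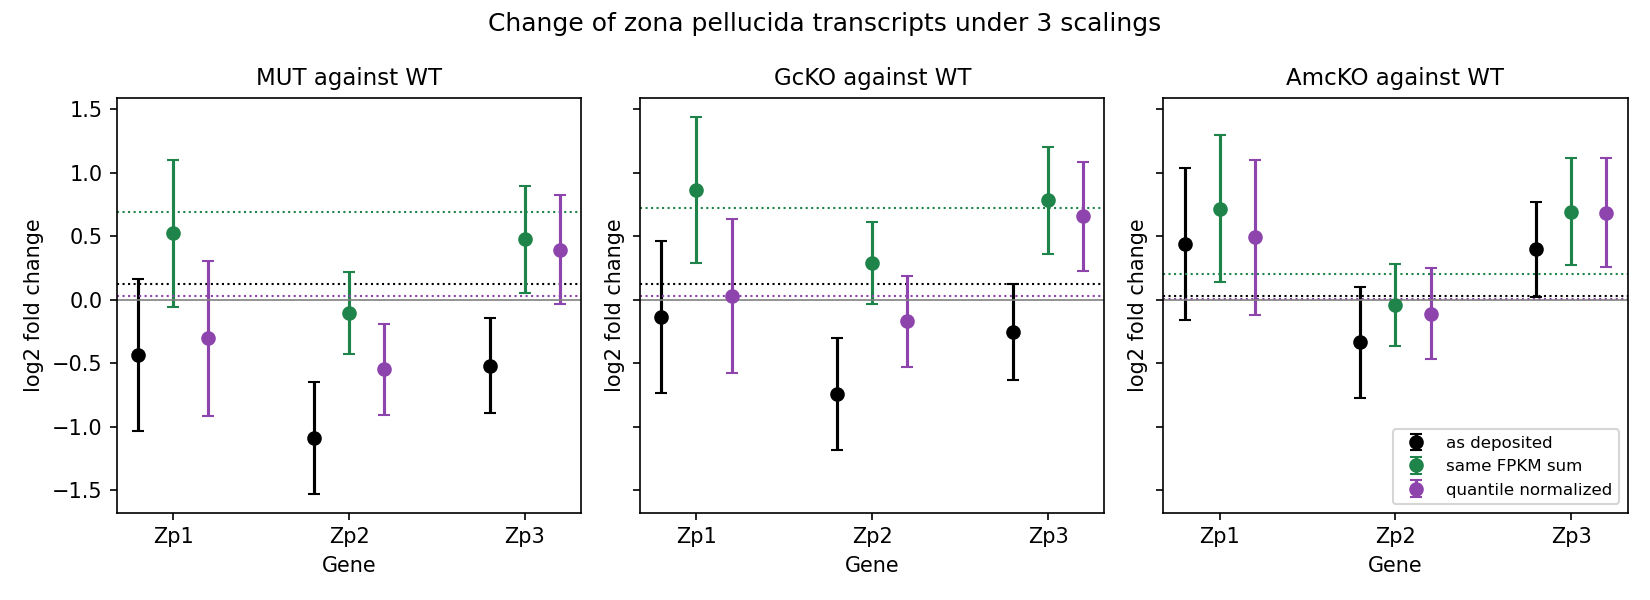
Log2 fold change against WT (y axis) of Zp1, Zp2 and Zp3 (x axis) in MUT, GcKO and AmcKO oocytes under 3 scalings. Points are limma estimates with 95% intervals, and dotted lines mark the median of all 11233 genes under the scaling of the same colour. In MUT and GcKO the deposited values lie below 0 and the values at the same FPKM sum lie higher, with Zp2 below Zp1 and Zp3 in each scaling.

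The AmcKO comparison addressed deletion in the granulosa cells that surround the oocyte. limma called 0 of the 3 members in AmcKO against WT, where 0.214% of all genes were called, and 1 member, Zp3, had an unadjusted p under 0.05. Zp3 differed by 0.40 (SE 0.17, adjusted p = 0.300), Zp1 by 0.44 (SE 0.28, adjusted p = 0.475) and Zp2 by -0.34 (SE 0.20, adjusted p = 0.444). The 95% interval of the Zp2 difference ran from -0.78 to 0.10, and the estimates do not show that the levels were alike. At the same FPKM sum the differences were 0.69 for Zp3, 0.72 for Zp1 and -0.042 for Zp2, none of them called by limma beside 0.276% of all genes, with 2 (Zp1 and Zp3) at an unadjusted p under 0.05. All 3 AmcKO values of Zp2 lay below WT as deposited, as did those of 8.61% of all genes tested.

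The knockouts and the point mutant were also compared with one another. Between GcKO and MUT limma called 0 of the 3 members as deposited, with 0 at an unadjusted p under 0.05 and 0.205% of all genes called. The differences were 0.30 for Zp1, 0.35 for Zp2 and 0.27 for Zp3, with 95% intervals that reached 0.90, 0.79 and 0.64. At the same FPKM sum Zp2 differed by 0.39 (limma unadjusted p = 0.0218, adjusted p = 0.450). With quantile normalization it differed by 0.38 (limma unadjusted p = 0.0395, adjusted p = 0.592). None of the 3 members was called on these scales, where 75 and 59 of all genes were. Between GcKO and AmcKO 1 member, Zp3, was lower as deposited (log2 fold change -0.65, SE 0.17, limma adjusted p = 0.0456), beside 5.46% of all genes called with 4.79% lower and 0.668% higher. The Zp3 call was lost without AmcKO replicate 4 (adjusted p = 0.165) and without replicate 6 (adjusted p = 0.127), likewise without GcKO replicate 1, 2 or 3 (adjusted p = 0.135, 0.0646 and 0.0798), and at the same FPKM sum the difference was 0.089 (adjusted p = 0.772) where 23.3% of genes were called. The comparisons against WT share the WT libraries, and those of GcKO share the GcKO libraries.

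Calls were frequent where the label numbers of the groups differed and rare where they were the same. The comparisons of libraries 1 to 3 with libraries 4 to 6 had 20.8%, 20.2% and 5.46% of genes called, and those within the same numbers had 0.214% and 0.205%. No comparison of MUT or GcKO with WT exists within the same numbers, so what the numbers stand for and the genotype cannot be told apart for Zp2 and Zp3.

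The ratio of 2 members within a library does not depend on the scaling of that library. The Zp2 level was 28.4%, 27.2% and 27.3% of the Zp3 level in WT and 23.6%, 18.3% and 14.6% in MUT. It was 14.9%, 19.5% and 25.9% in GcKO and 15.7%, 22.0% and 13.2% in AmcKO. WT was the highest and most uniform group, at 27.6% ± 0.661, and every library of the other groups lay below it. The mean was 18.8% ± 4.52 in MUT and 17.0% ± 4.57 in AmcKO (SD, n = 3), and it was 20.1% in GcKO, where the libraries ranged from 14.9 to 25.9%.

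The log2 ratio of Zp2 to Zp3 differed from WT by -0.58 in MUT, by -0.49 in GcKO and by -0.74 in AmcKO. Over the 4 groups the exact permutation test over all 369600 assignments of the libraries to groups gave p = 0.121 (0.182 adjusted over the 3 ratios), so a difference between the groups beyond the spread of the pools was not shown. A separation of 3 against 3 libraries cannot reach a p below 0.1 in a two-sided exact test, and no pairwise test was made.

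The ratio of Zp1 to Zp3 overlapped between all groups. Zp1 was at 4.65% ± 0.807 of Zp3 in WT, 4.83% ± 0.199 in MUT, 5.14% ± 1.49 in GcKO and 4.81% ± 0.763 in AmcKO (SD, n = 3). The exact permutation test gave p = 0.972, and the group differences from WT were 0.068, 0.11 and 0.051 on the log2 scale. Zp1 was at 16.8% ± 2.70 of Zp2 in WT, 26.7% ± 6.85 in MUT, 25.6% ± 3.67 in GcKO and 29.9% ± 10.3 in AmcKO, with WT the lowest group and no library of the others at or below the highest WT library (18.6%). The exact permutation test of that ratio gave p = 0.0880 (0.182 adjusted over the 3 ratios).

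**Figure D4:**
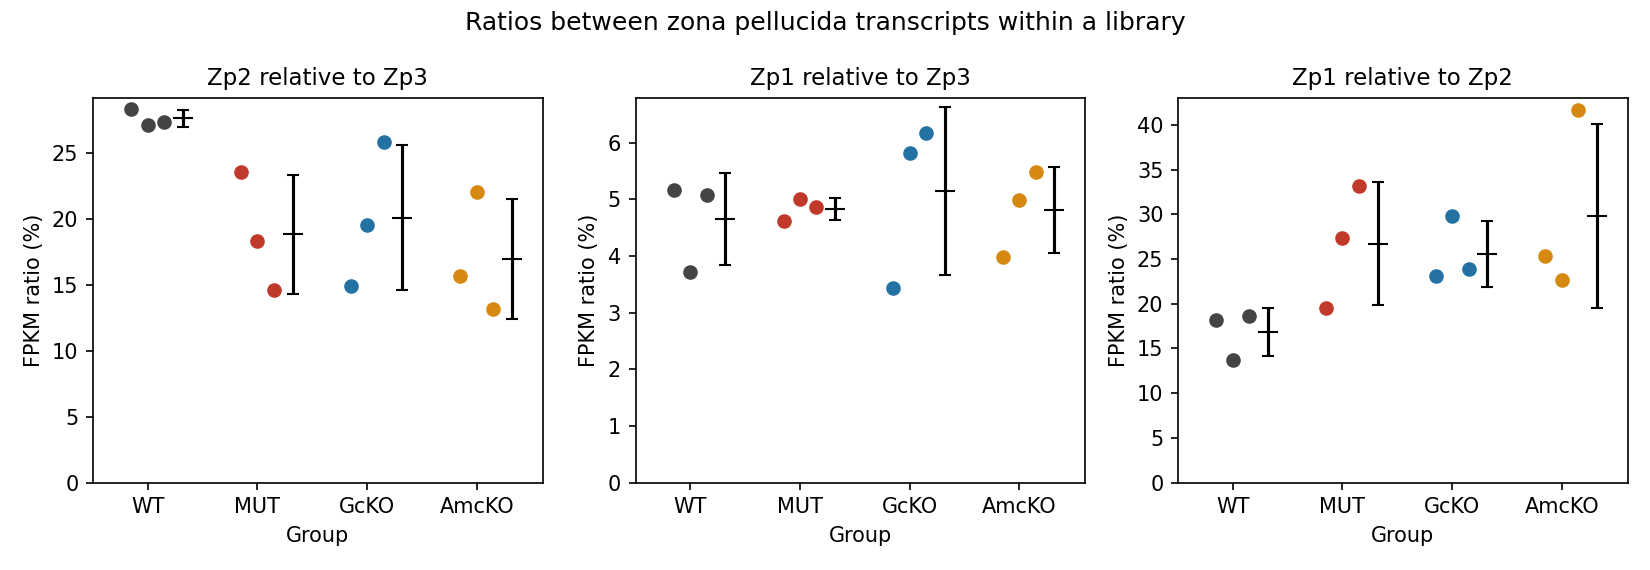
FPKM ratios in percent (y axis, from 0) of Zp2 to Zp3, Zp1 to Zp3 and Zp1 to Zp2 within each library, by group (x axis). Points are libraries, and bars give the mean and SD of 3. The WT libraries sit at 27.2 to 28.4% for Zp2 relative to Zp3, above the other 9, while Zp1 relative to Zp3 overlaps between all groups.

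Across the 12 libraries Zp1 followed Zp3 more closely than Zp2. Among 3420 other genes with a mean of at least 10 FPKM, Zp3 ranked 4 in likeness to Zp1 (Pearson r = 0.85 of log2(FPKM + 1), n = 12 libraries), and Zp2 ranked 220 (r = 0.60). Zp1 ranked 17 in likeness to Zp3, and Zp2 ranked 404 (r = 0.61). The correlations share the libraries and their scaling, but at the same FPKM sum Zp3 ranked 1 for Zp1 (r = 0.85), while Zp2 had r = 0.43 with Zp1 and r = 0.29 with Zp3.

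The 5 genes most like Zp2 as deposited were 3010026O09Rik (r = 0.99), Gm13023, Zfp68, Oas1e and Gm13152 (r = 0.97 each). Among those most like Zp3 were Inpp4a (r = 0.95), Rabac1, Fdft1 and C87499 (r = 0.92 to 0.93). Beside Zp3, the genes most like Zp1 were Npc2 (r = 0.90), Cenpm, Ccdc124 (r = 0.86 each) and Rhbdf1 (r = 0.84). 3010026O09Rik and Gm13023 kept the first 2 places for Zp2 at the same FPKM sum, at r = 0.93 and 0.84. Oas1e belongs to a cluster of similar genes, and its values depend on how reads were divided among them.

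Among proteins that share the ZP domain, the module by which such proteins polymerize, Umodl1 had the largest fall of the list in MUT and in GcKO. Of 15 listed genes 9 passed the filter, and as deposited 3 of them (Zp2, Zp3 and Umodl1) were called lower in MUT and 2 (Zp2 and Umodl1) in GcKO, with 0 called higher and a median log2 fold change of -0.39 and -0.28, against 0.12 for all genes in both comparisons. Of all genes, 11.3% and 11.4% were called lower. At the same FPKM sum the medians of the list turned to 0.48 and 0.42, against 0.69 and 0.72 for all genes. On that scale only Umodl1 was called lower in MUT and in GcKO, and Zp1 and Zp3 were called higher in GcKO. Of all genes, 2.25% and 2.15% were called lower there and 41.3% and 42.4% higher. The list includes the 3 members, and apart from them only Umodl1 was called. The medians also include Zp4-ps, Zpld1 and Gp2, whose group means were below 1 FPKM. Umodl1 was at 2593, 2705 and 2885 FPKM in WT, 622, 637 and 667 FPKM in MUT, 568, 840 and 981 FPKM in GcKO, and 1956, 2489 and 1690 FPKM in AmcKO. All libraries of the other groups lay below WT, and those of MUT and GcKO lay far below AmcKO too. Umodl1 fell by 2.08 in MUT (SE 0.19, limma adjusted p = 5.39e-05) and by 1.81 in GcKO (adjusted p = 9.25e-05), and it was also called lower at the same FPKM sum, with log2 fold changes of -1.09 and -0.77. Zp4-ps, the pseudogene that the mouse has in place of Zp4, was listed at 0 in 9 of 12 libraries and at 1.07 to 1.28 FPKM in the others.

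The listed transcription factors, known for Zp genes or for oocyte genes in general, were not called as deposited. Of 9 listed factors 8 passed the filter, and limma called 0 in MUT and 0 in GcKO, with 1 and 3 at an unadjusted p under 0.05 and medians of 0.43 and 0.46. Of all genes, 20.8% and 20.2% were called in either direction. Figla was at 79.6, 122 and 156 FPKM in WT, 82.9, 95.9 and 85.8 FPKM in MUT, 65.5, 77.0 and 93.4 FPKM in GcKO, and 83.1, 117 and 114 FPKM in AmcKO. The groups overlapped with WT, and the log2 difference was -0.38 in MUT (limma adjusted p = 0.268) and -0.56 in GcKO (adjusted p = 0.105). The direction of Figla turned at the same FPKM sum, where it was called higher in MUT (log2 fold change 0.61, limma adjusted p = 0.0337) and differed by 0.47 in GcKO (adjusted p = 0.0876). Its partners Tcf3 and Tcf12 had group means of 0.274 to 1.75 FPKM. Nobox, a homeobox factor of early oocyte growth, had 51.4 ± 1.25 FPKM in WT, and its log2 difference was 0.28 in MUT and 0.44 in GcKO. At the same FPKM sum 6 of the 8 factors were called higher in MUT (Figla, Tcf4, Tcf12, Nobox, Lhx8 and Taf4b) and 4 in GcKO (Tcf3, Tcf12, Nobox and Lhx8), on a scale where 41.3% and 42.4% of all genes were called higher. With quantile normalization 0 were called in MUT and 2, Nobox and Lhx8, were called higher in GcKO.

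Of 6 listed genes for enzymes that cut zona proteins, 2 passed the filter, Furin and Astl. Furin, a convertase of secreted precursors, was at 0.80, 1.81 and 0.39 FPKM in WT and 2.95, 3.06 and 4.73 FPKM in MUT. It was at 3.12, 3.53 and 2.04 FPKM in GcKO and 3.57, 1.44 and 3.30 FPKM in AmcKO. Furin was called higher in MUT (log2 fold change 1.24, limma adjusted p = 0.0260), a call that was lost with quantile normalization, and it differed by 1.00 in GcKO (adjusted p = 0.0637) and by 0.92 in AmcKO (adjusted p = 0.245). Its WT values lay around the filter limit of 1 FPKM. As deposited 9.46% of all genes were called higher in MUT and 8.71% in GcKO. Astl, the cortical granule protease ovastacin that cleaves ZP2 after fertilization, was at 17.1 ± 1.92 FPKM in WT and 33.0, 31.4 and 31.7 FPKM in GcKO, and it rose by 0.88 (SE 0.24, limma adjusted p = 0.0192). Its log2 difference in MUT was 0.29 as deposited (adjusted p = 0.419), but at the same FPKM sum Astl was called higher in MUT too (log2 fold change 1.23, limma adjusted p = 0.00398), and both genes were called higher in MUT and in GcKO. On that scale 41.3% and 42.4% of all genes were called higher. The GcKO values of Astl were close to each other.

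Of 17 listed genes of ER glycoprotein folding 14 passed the filter. As deposited 1 was called lower and 2 higher in MUT, beside 11.3% and 9.46% of all genes, with the same counts in GcKO, beside 11.4% and 8.71%, and medians of 0.45 in both. The gene called lower was Canx in both comparisons. Canx encodes calnexin, the membrane lectin that retains N-glycosylated proteins in the ER until they are folded. It was at 400, 382 and 338 FPKM in WT, 158, 141 and 129 FPKM in MUT, 95.6, 117 and 136 FPKM in GcKO and 468, 450 and 402 FPKM in AmcKO. Canx fell by 1.39 in MUT (SE 0.16, limma adjusted p = 0.000111) and by 1.68 in GcKO (adjusted p = 3.88e-05), and it was called lower at the same FPKM sum too, with log2 fold changes of -0.39 and -0.65.

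The genes called higher were P4hb and Pdia4 in MUT and P4hb and Ganab in GcKO. Ganab was near the filter limit, at 1.28, 0.48 and 0 FPKM in WT and 2.98, 1.80 and 3.27 FPKM in GcKO. With quantile normalization Ganab lost its call, and Pdia6 and P4hb were called higher in GcKO. P4hb, a protein disulfide isomerase, was at 3.89 to 7.33 FPKM in WT, 15.8, 21.4 and 14.5 FPKM in MUT and 19.2, 12.9 and 12.7 FPKM in GcKO, a rise of 1.49 and 1.29 on the log2 scale. In AmcKO, P4hb was at 12.7, 14.5 and 13.5 FPKM, a difference from WT of 1.18 that was not called (limma adjusted p = 0.0684). GcKO differed from AmcKO by 0.11 (limma adjusted p = 0.879), so the higher level was not particular to MUT and GcKO. Hspa5, the ER chaperone BiP that is induced by unfolded proteins, differed by 0.036 in MUT (limma adjusted p = 0.934) and by 0.097 in GcKO (adjusted p = 0.771). At the same FPKM sum 11 of the 14 were called higher in each comparison, Hspa5 among them, and 1 lower, where 41.3% and 42.4% of all genes were called higher and their median was at 0.69 and 0.72.

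The oligosaccharyltransferase (OST), which transfers the glycan to the N-X-S/T site, was measured for all of its 12 listed genes. As deposited 2 were called lower (Dad1 and Ost4) and 2 higher (Rpn1 and Magt1) in MUT, and 1 lower (Dad1) and 1 higher (Stt3b) in GcKO, with medians of 0.30 and -0.016, where 11.3% and 11.4% of all genes were called lower and 9.46% and 8.71% higher. Ost4 differed by 0.27 in MUT at the same FPKM sum (limma adjusted p = 0.218), so its direction turned. With quantile normalization Ost4, Rpn1 and Magt1 lost their calls in MUT, as Dad1 did in GcKO, and Stt3b was called higher in both. Dad1, a small subunit, was at 1446, 1740 and 1835 FPKM in WT, 694, 651 and 605 FPKM in MUT, 528, 687 and 810 FPKM in GcKO, and 1179, 1651 and 1066 FPKM in AmcKO. MUT and GcKO lay below all libraries of WT and AmcKO. Dad1 fell by 1.36 in MUT and by 1.32 in GcKO (limma adjusted p = 0.000338 and 0.000413), and at the same FPKM sum its differences were -0.36 (adjusted p = 0.0187) and -0.29 (adjusted p = 0.0523). Stt3b, a catalytic subunit, was at 48.1 ± 7.40 FPKM in WT and 72.3 ± 5.92 FPKM in GcKO, a rise of 0.58 (limma adjusted p = 0.0175). It was at 64.5 ± 5.25 FPKM in MUT and 62.4 ± 2.88 FPKM in AmcKO. These differed from WT by 0.42 and 0.38 (limma adjusted p = 0.0728 and 0.278), and GcKO differed from AmcKO by 0.21 (limma adjusted p = 0.524). Of the 12, 7 were called higher in each comparison at the same FPKM sum, with medians of 1.15 and 0.80, beside 41.3% and 42.4% of all genes.

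As deposited, limma called 0 genes of each of these 5 lists between AmcKO and WT, where 0.214% of all genes were called, with 2, 0, 1, 2 and 1 genes at an unadjusted p under 0.05 in the order in which the lists were described. Between GcKO and MUT it likewise called 0, with 0, 1, 1, 0 and 0, where 0.205% of all genes were called. Between GcKO and AmcKO, Zp3, Umodl1, Canx and Dad1 were called lower as deposited, with 0 genes of the lists higher. Of all genes, 4.79% were called lower and 0.668% higher. With equal FPKM sums Umodl1 and Canx were called lower between GcKO and AmcKO and Zp3 and Dad1 were not, while 2 transcription factors (Nobox and Lhx8), Astl, 6 of the folding genes and 4 of the OST genes were called higher. On that scale 23.3% of all genes were called in either direction, and the median log2 difference of all genes was 0.53.

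**Figure D5:**
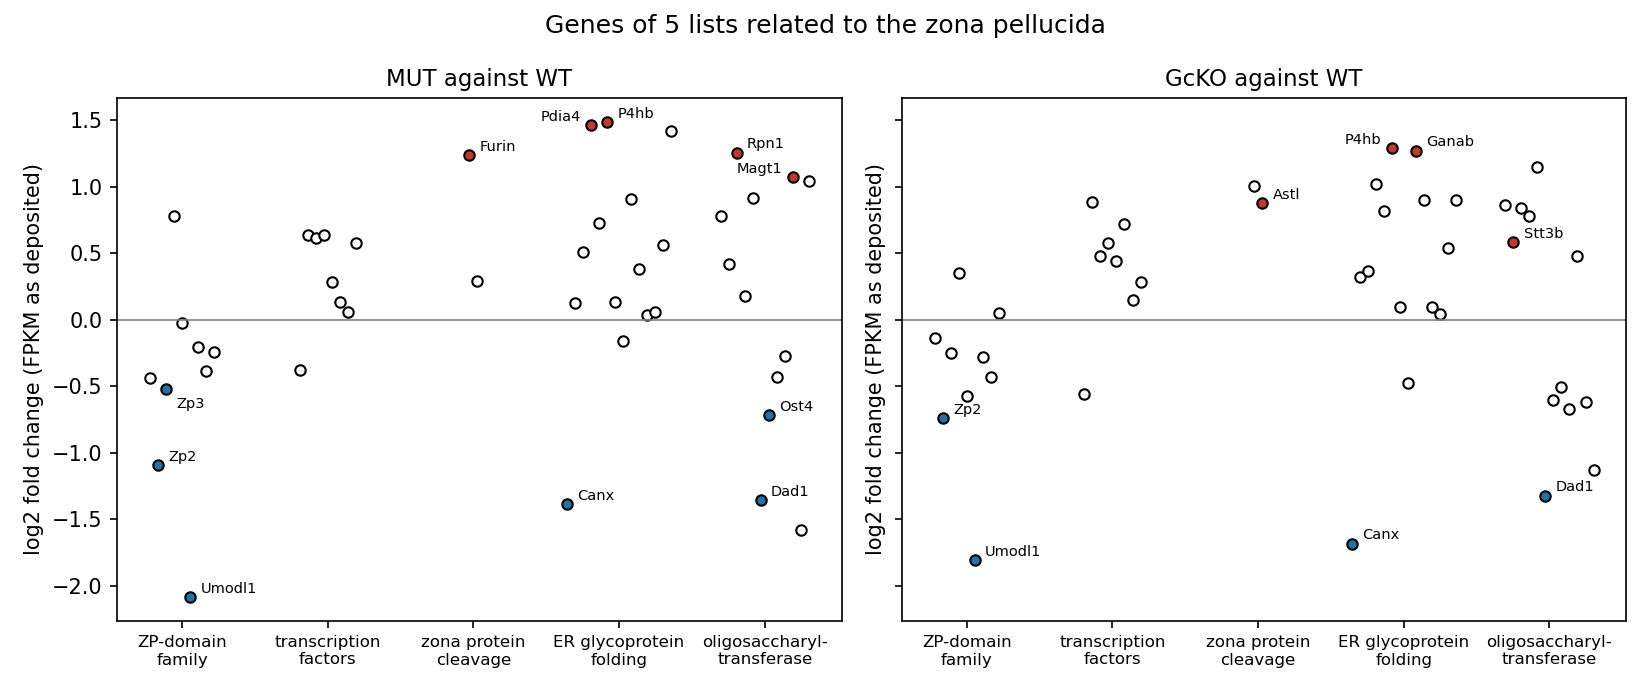
Log2 fold changes as deposited (y axis) of the tested genes of 5 lists (x axis) in MUT and GcKO against WT. Filled points were called by limma at an adjusted p under 0.05 (blue lower, red higher) and are named, and open points were not called. Umodl1, Canx and Dad1 lie lowest among the called genes in both panels, below Zp2.

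The oocyte label was checked with markers. All 13 oocyte markers passed the filter, and their summed FPKM ranged from 25815 to 27615 in WT, with 14274 to 16330 in MUT oocytes, 12308 to 16600 in GcKO oocytes and 21257 to 22261 in AmcKO oocytes. As deposited 4 of the 13 (Oosp1, Ooep, Dazl and H1foo) were called lower and 1 (Zar1) higher in MUT and likewise in GcKO. Of all genes, 11.3% and 11.4% were called lower in these comparisons, and 9.46% and 8.71% higher. As a share the sum went the other way, from 22114 to 22524 ppm in WT against 23356 to 26701 ppm for MUT and 24262 to 26637 ppm for GcKO. With the sums set equal 1 marker, Ooep, was called lower and 7 higher in each of the 2 comparisons. On that scale 41.3% and 42.4% of all genes were called higher, and 2.25% and 2.15% lower. With quantile normalization 0 markers were lower, with 4 higher in MUT and 6 in GcKO. There 13.1% of all genes were called in either direction in MUT, and 6.15% were called higher in GcKO. Of 12 granulosa and cumulus markers 4 (Amh, Amhr2, Foxl2 and Lhcgr) were at 0 in all libraries, and the sum of the list ranged from 17.6 to 23.1 FPKM in WT, with 14.7 to 27.2 FPKM in MUT, 14.3 to 28.9 FPKM in GcKO and 11.5 to 22.7 FPKM in AmcKO. As a share of the FPKM sum, the same list made up at most 19.8 ppm in WT and 20.5 ppm in AmcKO, while it reached 46.1 ppm in MUT and 42.3 ppm in GcKO. On that scale every MUT and GcKO library lay above all WT and AmcKO libraries. Against WT alone, 49.6% of all genes tested lay wholly above in MUT and 48.2% in GcKO on the share scale. Inha, the inhibin alpha subunit of granulosa cells, had 0 FPKM in every WT library and 5.44, 1.13 and 5.44 FPKM in MUT. With Hsd17b1 it was called higher in MUT as deposited, beside 9.46% of all genes. Since 1 fragment stood for more FPKM in WT than in MUT, the WT values of 0 do not show that Inha was absent there. Of 7 theca and stroma markers 5 were at 0 in all libraries and the sum was at most 0.850 FPKM, and of 3 blood and immune markers 2 were at 0 in all libraries and the sum was at most 0.960 FPKM. What part such RNA had in the differences of the Zp transcripts was not tested.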

How the data were processed

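The authors aligned paired reads of 150 nt to mm10 with TopHat2 2.0.13 and deposited 1 FPKM value per gene and library from Cufflinks 2.2.1. Cuffnorm is also named in the processing notes, but the scaling that leaves unequal sums is not given in the sources used here, nor is the gene annotation. The labels and the series text name different library kits. The authors' own results of 6 pairwise comparisons (fold changes with their p and q) are deposited beside them and were not used. No library column was left unmapped, and no pair of libraries held identical values.

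limma 3.58.1 (R 4.3.3, trend = TRUE) was run on log2(FPKM + 1) for the 11233 genes with at least 1 FPKM in at least 1 library, in 1 fit of all 12 libraries with 8 residual degrees of freedom. On this scale the change of low genes is understated. Tests were two-sided, and p-values were adjusted by Benjamini-Hochberg over all genes tested in each of 5 comparisons, with calls at an adjusted p under 0.05. Ratios were compared with an exact permutation test of the one-way F statistic of the log2 ratio over the 4 groups. The named genes are the 3 members, Dpagt1, genes of 5 lists (ZP-domain family, transcription factors, zona protein cleavage, ER glycoprotein folding and OST), cell type markers, and for each member the 5 genes with the highest Pearson r, of which 1 is not reported here. The members and lists were chosen with earlier results of these data known. Potential glycosylation sites were AAC or AAT, any codon but CCN, and TCN, ACN, AGC or AGT, read in frame in GENCODE M21 transcripts of GRCm38, and the upstream sequence of Zp3 is from RefSeq (GRCm38.p6). The fit and the permutation test were tested on simulated data. Python 3.11.15 with numpy 2.4.6 and pandas 2.3.3 was used. The alternatives were 3 other scalings, a pseudocount of 0.1 (for ratios, 1), no filter or a mean of at least 5 FPKM, no variance trend, only the 2 groups compared, a fold change over 2 as the study states, the label number as a block, and each library left out in turn.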

Additional observations from a re-analysis of the deposited data

How the results depend on the processing

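The scaling decided most calls. At the same FPKM sum the log2 differences in MUT against WT were 0.52 for Zp1, -0.10 for Zp2 and 0.48 for Zp3, those in GcKO against WT were 0.86, 0.29 and 0.78, and those in GcKO against AmcKO were 0.15, 0.33 and 0.089. With quantile normalization they were 0.39 for Zp3 in MUT, 0.028, -0.17 and 0.66 for Zp1, Zp2 and Zp3 in GcKO against WT, and -0.026 for Zp3 in GcKO against AmcKO. Median-of-ratios scaling changed no call or direction of a member. The number of genes called in MUT, GcKO and GcKO against AmcKO was 2332, 2264 and 613 as deposited, 4892, 5006 and 2622 at the same FPKM sum, and 1473, 1356 and 250 with quantile normalization. For GcKO against MUT these were 23, 75 and 59. The cause was not tested.

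With the deposited scaling, Zp3 in MUT (-0.52) lost its call with a pseudocount of 0.1 (adjusted p = 0.0506), without a filter (0.0682), without the variance trend (0.121) and with a fold change over 2. Zp2 in GcKO against WT (-0.74) lost its call without the variance trend (0.0533), with only the 2 groups compared (0.0519) and with a fold change over 2. Zp3 in GcKO against AmcKO (-0.65) lost its call without a filter (0.0666), without the variance trend (0.144), with only the 2 groups compared (0.155) and with a fold change over 2. The call of Zp2 in MUT was lost only at the same FPKM sum among these alternatives. No variance trend, only the 2 groups compared and a fold change over 2 took the 613 calls of GcKO against AmcKO to 199, 115 and 264, and a fold change over 2 left 1478 in MUT and 1372 in GcKO. In AmcKO against WT 24 genes were called, 44 with the pseudocount of 0.1, 52 at a mean of at least 5 FPKM and 8 with only the 2 groups compared.

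Without each library in turn, Zp3 in MUT ranged from -0.61 to -0.40, Zp2 in GcKO against WT from -0.91 to -0.50, Zp3 in GcKO against AmcKO from -0.84 to -0.56, and Zp1 in GcKO against WT from -0.32 to 0.17, turning its direction without GcKO replicate 1. Zp2 in MUT, at -1.17 to -0.95, kept its call in 6 of 6. No ratio was called under any alternative run, with adjusted p from 0.0907 to 0.994. Leaving out a library took the genes called in AmcKO against WT to 15 without AmcKO replicate 4 and 135 without replicate 5. In MUT against WT it took the 2332 to 1546 without MUT replicate 2 and 1493 without replicate 3, and in GcKO against WT it took the 2264 to 1353 without GcKO replicate 1. The 613 of GcKO against AmcKO became 313 and 378 without GcKO replicates 1 and 2, and 322 and 340 without AmcKO replicates 4 and 5. The 23 of GcKO against MUT became 10, 11 and 11 without MUT replicates 1, 2 and 3 and 9 without GcKO replicate 3.

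Same-numbered libraries did not deviate together (correlations of -0.032 to 0.025 between AmcKO and WT and -0.041 to 0.041 between GcKO and MUT), so no pairing by number was seen. Libraries of different numbers had correlations of -0.054 to 0.038 and -0.057 to 0.071. Deviations from means of 3 libraries cannot exclude that same-numbered pools were collected or prepared together. With the number as a replicate block the differences of Zp1, Zp2 and Zp3 were 0.44, -0.34 and 0.40 in AmcKO against WT (adjusted p = 0.499, 0.503 and 0.413) and 0.30, 0.35 and 0.27 in GcKO against MUT (0.812, 0.812 and 0.813), none called, and 7 genes in all were called in AmcKO against WT. The other comparisons share no numbers. The depth limits Zp1 most, with roughly 23 fragments in its shallowest library.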
